A study of Bos taurus with 12 samples.

Results

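The genes described here are 9 genes that mark the contractile cells of blood vessel walls, smooth muscle cells and pericytes: ACTA2, MYH11, TAGLN, CNN1, SMTN, CALD1, MYLK, RGS5 and PDGFRB. They were chosen by name, as every probe set of the array that carries exactly 1 gene symbol from this list. This gave 9 of the 9155 genes named on the array, through 10 of its 24016 probe sets other than controls. MYLK had 2 probe sets and is given by the brighter one, with the dimmer one beside it. All 10 were among the 16811 probe sets kept for testing after the dimmest were left out, which hold 7808 named genes.

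The study measured gene expression with the Affymetrix bovine array in 2 fat depots of steers of 2 cattle breeds, Japanese Black (JB), a breed known for marbled meat, and Holstein (HS), a dairy breed. The 12 samples form 4 groups of 3: JB intramuscular fat (IMF), HS intramuscular fat, JB subcutaneous fat (SCF) and HS subcutaneous fat. All 4 groups received the same energy-rich feeding, and neither age nor genotype beyond the breed is given in the labels. The labels give no animal for any sample, so it is unknown whether a group holds separate animals or whether both depots were taken from the same ones. The p-values therefore measure only the spread among these 12 samples.

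Smooth muscle cells wrap arteries and veins and contract through actin filaments, smooth muscle myosin and the kinase that switches this myosin on. Pericytes sit on capillaries, share part of this machinery, and depend on PDGF released by endothelial cells and received by the beta receptor. In adipose tissue both cell types belong to the vessel wall, and mural cells have also been studied there as a source of fat cell progenitors.

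Array signals are linear intensities as deposited, and differences are on the log2(signal + 16) scale after quantile normalization, with standard errors from limma fitted to all 16811 probe sets. The number of arrays limits the precision. Median signals per array ran from 77.6 to 88.3 except in HS IMF 3, where the median was 58.8. HS IMF 3 also correlated least with its own group (mean r of 0.805), and the GAPDH control probe sets had their highest 3' over 5' signal, 4.06, in HS SCF 5. The mean log2 signal of the adipocyte markers was 9.98 to 12.2 in IMF and 11.7 to 12.4 in SCF. The mean log2 signal of 14 skeletal muscle fibre markers was 12.04 to 13.01 in IMF. In SCF it was 5.81 to 6.14 in 4 samples, 8.47 in JB SCF 6 and 8.79 in HS SCF 5.

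Between the depots, the contractile genes were higher in intramuscular fat. Over both breeds, 6 of the 9 genes and 7 of the 10 probe sets rose in IMF over SCF and none fell, at an adjusted p below 0.05 (limma with Benjamini-Hochberg adjustment). Of all probe sets tested, 11.0% passed in this comparison and 4.66% passed with a higher level in IMF. The genes that rose were ACTA2, MYH11, TAGLN, CNN1, SMTN and MYLK, while CALD1, RGS5 and PDGFRB did not pass. The median log2 difference of the 9 genes was 2.53, against −0.06 over all probe sets tested. For 5 of the 10 probe sets, every IMF sample lay above every SCF sample, as for 3.11% of all probe sets. Because the tissue was measured in bulk, fewer cells of a type and less RNA per cell cannot be told apart.

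**Figure D1:**
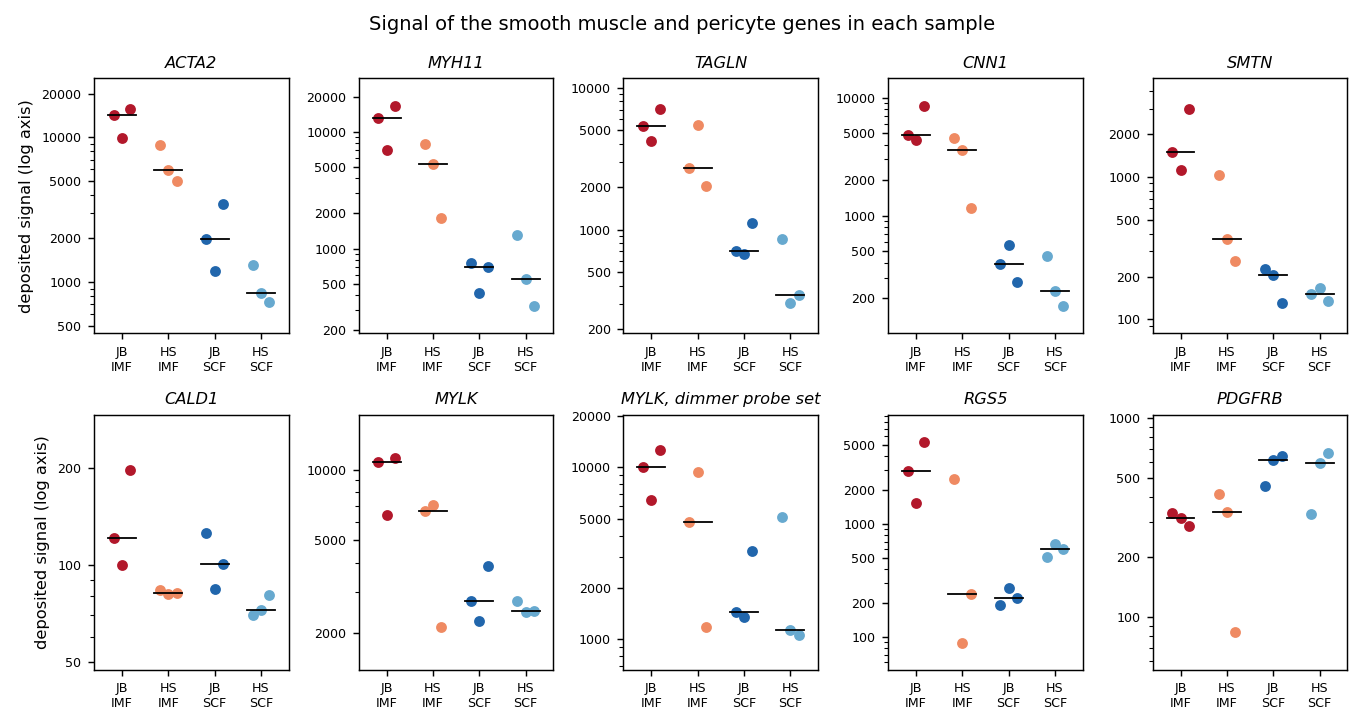
Deposited signal of each gene in each sample on a log axis, with points for the 3 samples of a group and a line at the group median. ACTA2, MYH11, TAGLN, CNN1 and SMTN have all 6 IMF samples above all 6 SCF samples, RGS5 is high in JB IMF and in 1 HS IMF sample, and PDGFRB is lower in most IMF samples than in most SCF samples.

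ACTA2 encodes the smooth muscle actin that forms the thin filaments of vascular smooth muscle. Its signal was 14361, 9969 and 15655 in JB IMF, against 8861, 5989 and 4957 in HS IMF. In SCF it was 1997, 1186 and 3448 in JB, against 1318, 840.2 and 725 in HS. All IMF samples were above all SCF samples, and within IMF all JB samples were above all HS samples. ACTA2 was higher in IMF by 2.91 ± 0.29 on the log2 scale (SE; adjusted p = 5.11e-05, limma with Benjamini-Hochberg adjustment), which is 7.49-fold. The depot difference was 2.83 in JB and 2.98 in HS, so it was of similar size in both breeds. ACTA2 has close relatives among the muscle actins, and whether its probe set also binds their transcripts was not tested. The skeletal muscle actin ACTA1 had a signal of 7292 in HS SCF 5 and 1462 in JB SCF 6, against 6.95 to 57.2 in the other 4 SCF samples. The ACTA2 signal in HS SCF 5 was 840.2, between those of the other HS SCF samples, while the one in JB SCF 6 was the highest of SCF.

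MYH11, the myosin heavy chain of smooth muscle and one of its most specific markers, had, together with CNN1, the largest depot difference of the 9 genes. Its signal was 13091, 7041 and 16826 in JB IMF, against 7915, 5334 and 1845 in HS IMF. In SCF the signal was 757, 418 and 702 in JB, against 1312, 553 and 323 in HS. The lowest IMF sample, HS IMF 3, was still above the highest SCF sample, HS SCF 4. MYH11 was higher in IMF by 3.73 ± 0.40 (SE; adjusted p = 9.62e-05, limma with Benjamini-Hochberg adjustment), or 13.3-fold. It rose by 4.40 in JB and by 3.06 in HS. The call in HS was kept in 20 of 23 other settings and lost without HS SCF 6, where the difference was 2.60 with an adjusted p of 0.0672.

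TAGLN encodes transgelin, an actin-binding protein of smooth muscle. Its signal was 5361, 4233 and 7100.4 in JB IMF, against 2731, 5442 and 2024 in HS IMF. In SCF it was 705, 676 and 1120.1 in JB, against 855, 305 and 347 in HS. The depots did not overlap, while the breeds did in each depot. TAGLN was higher in IMF by 2.92 ± 0.32 (SE; adjusted p = 0.000103, limma with Benjamini-Hochberg adjustment).

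CNN1 encodes calponin, which binds actin and restrains myosin in smooth muscle. Its signal was 4865, 4366 and 8549 in JB IMF, against 4569.9, 3617 and 1176 in HS IMF. In SCF the values were 395, 567 and 273 in JB and 456, 231 and 173 in HS. No SCF sample reached the lowest IMF value, and in both depots the breeds overlapped. The difference of 3.72 ± 0.32 between IMF and SCF had the smallest adjusted p of the 9 genes, 1.89e-05 (SE; limma with Benjamini-Hochberg adjustment). It was 3.84 in JB and 3.61 in HS.

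SMTN encodes smoothelin, a protein of the contractile apparatus of differentiated smooth muscle. Its signal was 1503, 1116 and 2992 in JB IMF, against 1023, 366 and 256 in HS IMF. In SCF it was 226, 206 and 131.5 in JB, against 151, 165 and 134 in HS. The depots did not overlap, but HS IMF 3 at 256 came close to JB SCF 4 at 226. SMTN was higher in IMF by 2.53 ± 0.29 over both breeds (SE; adjusted p = 0.00016, limma with Benjamini-Hochberg adjustment). The difference was 3.18 in JB and 1.88 in HS, and the interaction of 1.30 ± 0.57 (SE) did not pass (adjusted p = 0.99, limma with Benjamini-Hochberg adjustment). In HS the call was lost in 9 of 23 other settings, among them those without HS IMF 3 (2.05, adjusted p = 0.0528), HS SCF 4 (1.92, adjusted p = 0.0576), HS SCF 5 (1.91, adjusted p = 0.0731) and HS SCF 6 (1.80, adjusted p = 0.122).

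CALD1 encodes caldesmon, an actin-binding regulator of contraction that also has a form outside muscle. Its signal was 121, 100.2 and 198 in JB IMF, against 83.7, 81.2 and 81.7 in HS IMF. In SCF it was 126, 84.5 and 100.5 in JB, against 69.9, 72.3 and 80.9 in HS. Over both breeds the depots overlapped widely, while within HS all IMF samples lay narrowly above all SCF samples (81.2 against 80.9 at the closest). CALD1 differed between IMF and SCF by 0.36 on the log2 scale, with a 95% interval of −0.05 to 0.76, and did not pass (adjusted p = 0.24, limma with Benjamini-Hochberg adjustment). For this probe set, a depot difference of the size seen for the other actin-associated genes above (2.53 or more) lies outside the interval. The CALD1 signals of 69.9 to 198 were low, however, where median signals per array ran from 58.8 to 88.3. Whether so low a signal hides a larger difference in the transcript was not tested. Whether the 1 probe set reads the smooth muscle form of caldesmon, the other form or both was not tested.

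MYLK encodes the kinase that phosphorylates the myosin light chain and starts smooth muscle contraction. The brighter probe set had signals of 10822, 6382 and 11237 in JB IMF, against 6649.9, 7095 and 2126 in HS IMF. In SCF they were 2752, 2247 and 3892 in JB, against 2758, 2471 and 2479 in HS. All IMF samples but HS IMF 3 were above all SCF samples. The dimmer probe set had 9999, 6496 and 12712 in JB IMF, against 4790.1, 9433 and 1178 in HS IMF. In SCF it had 1447, 1348 and 3248 in JB, against 5141 in HS SCF 4, 1134 in HS SCF 5 and 1056 in HS SCF 6. HS IMF 3 was low and HS SCF 4 high, so that the depots overlapped in HS. The brighter probe set rose by 1.45 ± 0.28 in IMF (SE; adjusted p = 0.0071) and the dimmer by 1.89 ± 0.53 (SE; adjusted p = 0.0416, limma with Benjamini-Hochberg adjustment). In JB the difference of the brighter was 1.71 (adjusted p = 0.0397) and that of the dimmer 2.40 (adjusted p = 0.136, limma with Benjamini-Hochberg adjustment). The JB call of the brighter probe set was kept in 12 of 23 other settings, with an adjusted p of 0.20 without JB IMF 3 and 0.182 without JB SCF 5.

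RGS5, a regulator of G protein signalling widely used as a pericyte marker, differed widely between the samples of HS IMF and little within each SCF group. Its signal was 2932, 1529 and 5349 in JB IMF, against 2509, 88.6 and 242 in HS IMF. In SCF the signal was 191, 274 and 224 in JB, against 515, 665 and 606 in HS. All JB IMF samples were high, 1 HS IMF sample was as high as they were and the other 2 were low. In SCF the order of the breeds was turned, with all HS samples above all JB samples. The log2 SD was 0.89 in JB IMF and 2.31 in HS IMF, against 0.23 in JB SCF and 0.11 in HS SCF. The SEs of RGS5 come from a spread shared by all 4 groups, so they also carry the spread of HS IMF. Within JB, RGS5 rose by 3.65 ± 0.85 in IMF over SCF (SE; adjusted p = 0.0387, limma with Benjamini-Hochberg adjustment). Within HS the difference was −0.19 ± 0.85 (SE; adjusted p = 0.92, limma with Benjamini-Hochberg adjustment). Over both breeds it was 1.73 and did not pass (adjusted p = 0.086, limma with Benjamini-Hochberg adjustment), and without HS IMF 2 it was 2.29 with an adjusted p of 0.00633. The JB call was kept in 11 of 23 other settings, and the largest adjusted p, 0.207, came without JB IMF 3.

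PDGFRB, the receptor through which PDGF recruits and maintains pericytes and which fibroblasts also carry, was the 1 gene with lower values in IMF. Its signal was 333, 315 and 285 in JB IMF, against 417, 337 and 84.0 in HS IMF. In SCF it was 457, 617 and 642 in JB, against 329, 593 and 667 in HS. In JB all IMF samples lay below all SCF samples, and in HS the value of HS SCF 4 lay within the IMF range. The difference of −0.81 ± 0.27 did not pass (SE; adjusted p = 0.0779, limma with Benjamini-Hochberg adjustment). Without HS IMF 3, the sample with the value of 84.0, it was −0.57 (adjusted p = 0.0822). It passed in 4 of 22 other settings (limma with Benjamini-Hochberg adjustment). These were without HS IMF 1 (adjusted p = 0.044), without HS SCF 4 (adjusted p = 0.0473) and with array weights (−0.733, adjusted p = 0.0199). The last was without both HS IMF 3 and HS SCF 4 (−0.70, adjusted p = 0.0187). The largest adjusted p, 0.257, came without both JB SCF 6 and HS SCF 5.

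Taken within each breed, 7 of the 10 probe sets rose in IMF in JB, where 3.07% of all probe sets passed and 2.15% passed with a higher level in IMF. In HS 5 of the 10 rose, where 3.32% passed and 1.80% passed with a higher level in IMF. The 7 in JB were ACTA2, MYH11, TAGLN, CNN1, SMTN, the brighter MYLK probe set and RGS5, and the 5 in HS were ACTA2, MYH11, TAGLN, CNN1 and SMTN. On the normalized scale, all IMF samples lay above all SCF samples for 8 probe sets in JB, where 14.1% of all probe sets did so, and for 7 in HS, where 7.79% did so. On the deposited scale it was 8 in JB and 6 in HS, where the brighter MYLK probe set dropped out. Its normalized level was 11.4994 in HS IMF 3 and 11.4978 in HS SCF 4. CALD1, among the 7 in HS, was separated by 81.2 in HS IMF 2 against 80.9 in HS SCF 6. The median difference of the 9 genes was 2.83 in JB and 1.88 in HS. None of the 10 probe sets passed the test of whether the depot difference itself differed between breeds, and neither did any other probe set (0% of all; limma). RGS5 and SMTN, 2 of the 10, had an unadjusted p below 0.05 in that test, as did 2.14% of all probe sets.

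**Figure D2:**
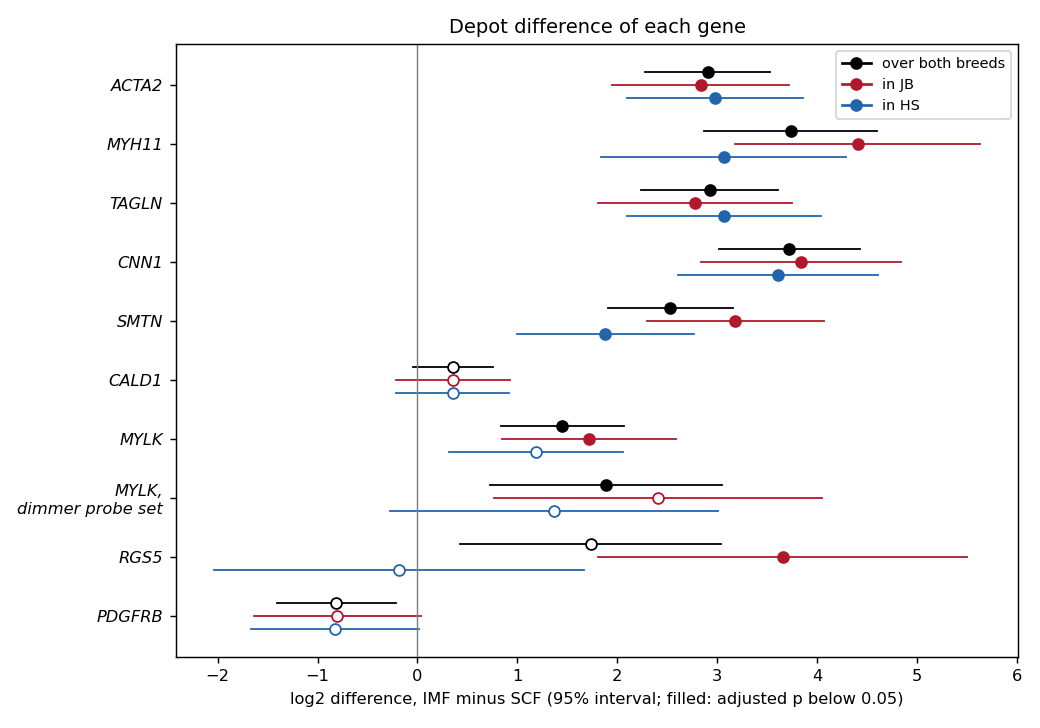
Log2 difference of each gene, IMF minus SCF, with 95% intervals over both breeds, in JB and in HS, where filled points passed at an adjusted p below 0.05. The 5 genes ACTA2, MYH11, TAGLN, CNN1 and SMTN lie far right of 0 in both breeds, RGS5 lies at 3.65 in JB and −0.19 in HS, and PDGFRB lies left of 0.

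Between the breeds in intramuscular fat, the 9 genes all had higher fitted levels in JB, as did 57.8% of all probe sets tested. None of the 9 passed the test. Of all probe sets, 0.0238% passed in this comparison. The median log2 difference was 0.69, or 0.88 with the dimmer MYLK probe set, against 0.10 over all probe sets. RGS5 had the largest difference, 2.43 ± 0.85 (SE; adjusted p = 0.485, limma with Benjamini-Hochberg adjustment), with a 95% interval of 0.58 to 4.28. SMTN followed with 1.46 ± 0.41 (SE; adjusted p = 0.485, limma with Benjamini-Hochberg adjustment) and an interval of 0.58 to 2.35. These 2 of the 10 probe sets had an unadjusted p below 0.05, which 10.2% of all probe sets had. MYH11 differed by 1.22 with an interval of −0.01 to 2.44, and by 0.68 without HS IMF 3. ACTA2 differed by 0.88 with an interval of −0.00271 to 1.76. For PDGFRB the difference was 0.09, with an interval of −0.75 to 0.92.

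On the normalized scale, all JB IMF samples were above all HS IMF samples for ACTA2 and SMTN, 2 of the 10 probe sets, against 7.31% of all probe sets. On the deposited scale this also held for CALD1. On both scales the values of HS IMF 1 or HS IMF 2 reached those of JB IMF 2 for MYH11, TAGLN, CNN1, MYLK, RGS5 and PDGFRB. JB IMF 3 had the highest normalized level of all IMF samples for 9 of the 10 probe sets, and HS IMF 3 had the lowest for 7 of the 10. JB IMF 3 also had the lowest mean log2 level in IMF of the adipocyte markers, 9.98, and of the macrophage markers, 7.49. The part of this in the breed difference was not tested. Without HS IMF 3 the median difference of the 9 genes was 0.52, and without JB IMF 3 it was 0.47. The RGS5 difference was 1.32 without HS IMF 2 and 3.64 without HS IMF 1. The median SD of the 10 probe sets was 0.415 in JB IMF and 0.81 in HS IMF, against 0.233 and 0.523 over all probe sets.

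In subcutaneous fat the breed differences had both signs. None of the 10 probe sets passed, where 0.00595% of all did, and the median difference of the 9 genes was 0.16. ACTA2 was 1.03 ± 0.41 higher in JB (SE; adjusted p = 1, limma with Benjamini-Hochberg adjustment), the 1 of 10 probe sets with an unadjusted p below 0.05, which 3.56% of all had. Without JB SCF 6 that difference was 0.605, and over all single samples left out it ran to 1.42. TAGLN differed by 0.73 (0.43 to 1.22 with single samples left out), CNN1 by 0.46 (0.16 to 0.87) and MYH11 by −0.12 (−0.58 to 0.45). All JB samples were above all HS samples for CALD1, 1 of 10 probe sets, against 5.81% of all. RGS5 was the 1 of 10 with all JB samples below all HS samples, against 6.20% of all, and differed by −1.41 ± 0.85 (SE; adjusted p = 1, limma with Benjamini-Hochberg adjustment). This SE comes from a spread shared by all 4 groups. The log2 SD of RGS5 was 0.23 in JB SCF and 0.11 in HS SCF, against 2.31 in HS IMF.

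**Figure D3:**
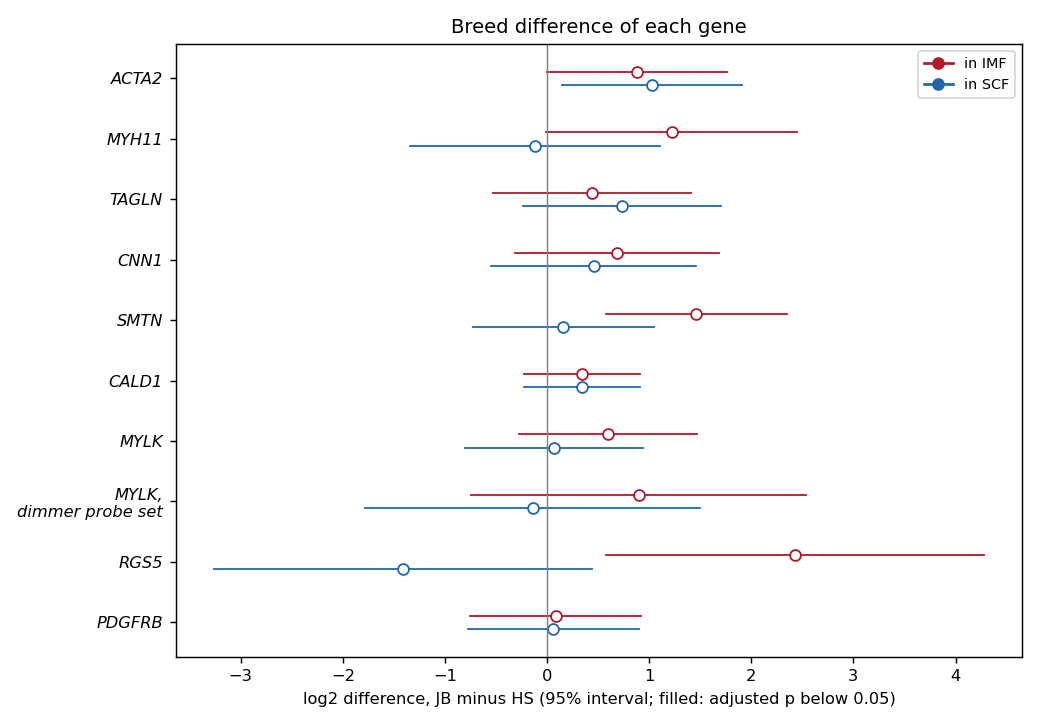
Log2 difference of each gene, JB minus HS, with 95% intervals in IMF and in SCF; no point is filled because none passed at an adjusted p below 0.05. RGS5 lies at 2.43 in IMF and −1.41 in SCF, and the other genes lie closer together in both depots.

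The breed difference of RGS5 in IMF exceeded that in SCF by 3.84 ± 1.20 (SE), with an interval of 1.23 to 6.46, but the interaction did not pass (adjusted p = 0.99, limma with Benjamini-Hochberg adjustment). Leaving out single samples moved it between 2.73 and 5.05. The interaction of MYH11 was 1.34, with an interval of −0.39 to 3.07, and was 0.765 without HS SCF 4 and 0.79 without HS IMF 3. That of ACTA2 was −0.14, with an interval of −1.394 to 1.105.

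Genes outside the list that act in the same apparatus moved in part with it between the depots. Of 13 tested genes for other contractile and actin-associated proteins, 7 rose in IMF and none fell (limma with Benjamini-Hochberg adjustment, over both breeds), with a median difference of 1.099. Of all probe sets tested, 4.66% passed with a higher level in IMF, and the median difference over all was −0.06. DES, the intermediate filament protein desmin, differed by 4.86 (adjusted p = 5.05e-06) and TPM2, a tropomyosin, by 3.82 (adjusted p = 2.5e-05). Both are made in skeletal muscle fibres too. LMOD1, leiomodin of smooth muscle, differed by 2.48 (adjusted p = 0.00221) and the actin crosslinker FLNA by 1.60 (adjusted p = 0.000884). The LMOD1 signal ran from 343 to 3536 in IMF and from 92.9 to 413 in SCF, so the depots overlapped in part. ACTN1, CSRP1 and VCL also rose, whereas MYL6, TPM1, TPM4, CNN2, CNN3 and TGFB1I1 did not pass.

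Of 9 tested genes that control contraction, 2 rose and none fell, with a median of 0.17. Again 4.66% of all probe sets tested passed with a higher level in IMF, and their overall median was −0.06. PLN, phospholamban, which restrains the calcium pump of muscle, differed by 2.90 (adjusted p = 0.000115), and GUCY1A1, a subunit of the nitric oxide receptor, by 0.64 (adjusted p = 0.0353, limma with Benjamini-Hochberg adjustment). PLN is made in slow skeletal muscle as well. KCNMB1, the potassium channel subunit of smooth muscle, differed by 1.72 and did not pass (adjusted p = 0.125). Neither SRF nor JAG1, the 2 measured genes for mural transcription and Notch signalling, passed, with differences of 0.58 (adjusted p = 0.0546) and 0.53.

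The other pericyte genes did not move together. Of the 5 tested, CSPG4, the proteoglycan NG2 of pericytes, rose by 1.29 ± 0.27 in IMF (SE; adjusted p = 0.0106) and ANPEP, an aminopeptidase, fell by 1.31 ± 0.31 (SE; adjusted p = 0.0186, limma with Benjamini-Hochberg adjustment). In either direction, 11.0% of all probe sets tested passed. The CSPG4 signal ran from 66.6 to 257 in IMF and from 9.25 to 89.4 in SCF. That of ANPEP ran from 60.4 to 181 in IMF and from 230 to 584 in SCF. MCAM differed by −0.62 (adjusted p = 0.0513), KCNJ8 by 0.23 and NDUFA4L2 by 0.14. PDGFRA, the alpha receptor of PDGF and a fibroblast marker, fell by 0.73 ± 0.21 in its brightest probe set (SE; adjusted p = 0.0455, limma with Benjamini-Hochberg adjustment). A dimmer PDGFRA probe set, with signals of 46.5 to 84.6, differed by 0.36 and did not pass (adjusted p = 0.262, limma with Benjamini-Hochberg adjustment). No gene of these lists passed between the breeds in either depot (limma).

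Markers of some other cell types also differed between the depots. Over both breeds, 4.66% of all probe sets tested passed with a higher level in IMF, and 1064 of 16811 with a lower one. Of the 14 skeletal muscle fibre markers, 12 rose in IMF, with a median difference of 6.57, and of the 7 macrophage markers all fell, with a median of −2.46. Of the 9 endothelial markers, 1 fell, ROBO4, and none rose, with a median of −0.18. None of the 8 adipocyte markers passed (median −0.80). The part of these cell types in the depot difference of the smooth muscle genes was not tested. In SCF the mean log2 level of the 9 genes was 9.13 in JB SCF 6 and 8.69 in HS SCF 5, the samples with high skeletal muscle markers, and 8.59 to 9.16 in the other 4. Without both samples, ACTA2, MYH11, TAGLN, CNN1, SMTN and MYLK passed over both breeds, 6 of the 10 probe sets. Dropping them leaves only SCF samples with low skeletal muscle markers, which widens the gap in these markers between the depots. This setting therefore does not test the part of muscle in the depot difference.

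**Figure D4:**
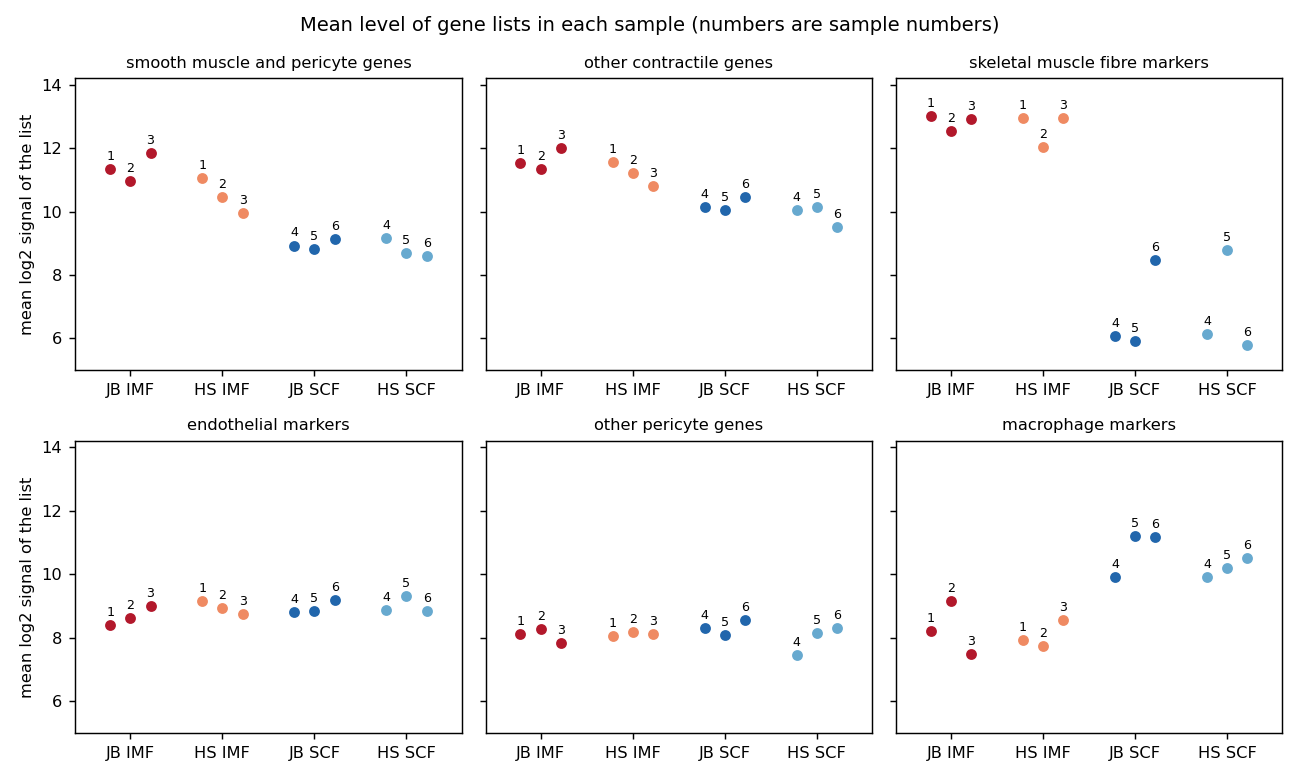
Mean log2 signal of 6 gene lists in each sample, with the sample number above each point. The 9 genes lie at 9.96 to 11.9 in IMF and 8.59 to 9.16 in SCF, the skeletal muscle markers set IMF apart with JB SCF 6 and HS SCF 5 between, and the endothelial markers lie at 8.41 to 9.14 in IMF and 8.81 to 9.30 in SCF.

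Between the breeds in IMF, most endothelial markers had the sign opposite to that of the 9 genes, and none passed. Their mean log2 level was 8.41 to 8.99 in JB and 8.76 to 9.14 in HS, and 1 of the 9 differed in the direction of the smooth muscle genes, with a median difference of −0.39. Within groups, the 9 genes varied together only in part. The deviations of ACTA2 from its group means correlated with those of MYH11 (Pearson r of 0.802) and MYLK (0.713), and those of SMTN with those of RGS5 (0.805). RGS5 and TAGLN had −0.342, and PDGFRB and CALD1 −0.586. These are descriptions over 12 samples that share arrays, scaling and the spread of HS IMF 3, without a test.

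**Figure D5:**
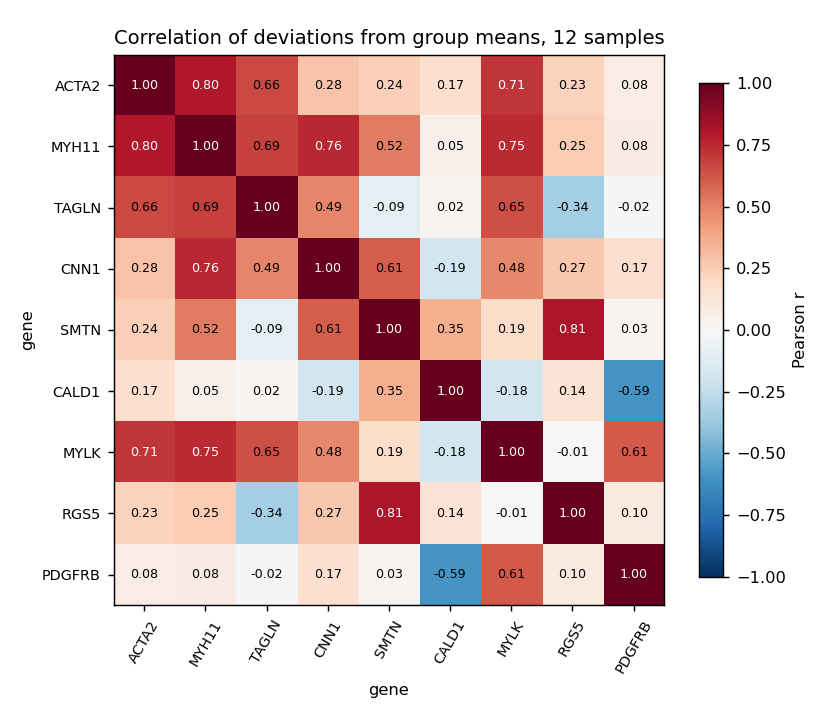
Pearson correlation between the deviations of the 9 genes from their group means over 12 samples, with red for positive and blue for negative values. ACTA2, MYH11, TAGLN and MYLK correlate with each other at 0.648 to 0.802, and RGS5 correlates highest with SMTN, at 0.805.

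The genes outside the list whose levels most resembled the mean of the 9 over the 12 samples were DSTN, DKK3, UBE2G1, CCNG1, FLNA, LMOD1 and SORBS2. DSTN, which encodes the actin-severing protein destrin, had a Pearson r of 0.991 and 0.974 in its 2 probe sets, and DKK3, a secreted glycoprotein, one of 0.985. All 7 genes were also higher in IMF than in SCF (each adjusted p below 0.05, limma with Benjamini-Hochberg adjustment), so part of this likeness is a depot difference that they share with the 9. By deviations from the group means, which leave out that gap, AMIGO2, an adhesion molecule, came first with 0.96, followed by INTS12 with 0.931 and DPYSL3 with 0.93. Both rankings take the highest r among all tested probe sets with 1 gene symbol outside the list, over only 12 samples. How high r would reach by chance was not tested.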

How the data were processed

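Total RNA of 12 samples was labelled with biotin and hybridized to the Affymetrix bovine array, per the labels' protocols. GCOS 1.1.1 and Affymetrix Expression Console 1.1 are named, with no role given, per the submitters' processing notes. How signals were summarized and scaled is not given in the sources used here. Values, as deposited, are linear intensities of 24128 probe sets, with 2303 zeros. The 112 controls were left out; of the other 24016, 13292 carried 1 gene symbol, 86 several and 10638 none. No per-sample column was left out.

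Signals were turned into log2(signal + 16) and quantile normalized. The dimmest 30% of probe sets by mean level were left out. Linear models with 4 group means were fitted with limma 3.58.1 in R 4.3.3 (8 residual and 4.05 prior degrees of freedom), and the threshold was an adjusted p of 0.05, by Benjamini and Hochberg over all tested probe sets of a comparison. The breeds were compared within each depot, the depots across breeds and in each breed, and the interaction subtracts the SCF breed difference from the IMF one. The fit was tested on simulated data. Figures were drawn with Python 3.11.15 and matplotlib 3.10.9.

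The 9 genes, the other gene lists and the settings were chosen with earlier results of these data known. A gene is given by its probe set with the highest mean. Of each further list, every gene past the threshold was counted and up to 4 with the smallest p were named, together with members singled out after their values were seen. The 8 probe sets most like the mean of the 9 genes were listed, as levels and as deviations from group means, and several of them are named. Deviations of same-numbered samples of the breeds had r of 0.0879, 0.117 and −0.04 in IMF, and −0.157, −0.012 and −0.278 in SCF. For differently numbered samples r ran from −0.188 to 0.0947 in IMF and from −0.186 to 0.322 in SCF. With 3 samples a group, these r cannot settle whether the numbers mark pairs. The numbers were not used as pairs in the main fit, and the depots share no numbers. Alternatives were another filter, scaling, pseudocount, variance model, weights per array, a fit of the compared groups alone, a replicate block, the other MYLK probe set, and leaving out samples.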

Additional observations from a re-analysis of the deposited data

How the results depend on the processing

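Across 24 alternatives, no gene that passed changed direction. ACTA2, CNN1, MYH11, MYLK, SMTN and TAGLN kept their call between the depots over both breeds in 22 of 22 alternatives, and no probe set passed between breeds or in the interaction in any. The count over both breeds ran from 6 to 9 of 10, and that in JB from 5 to 9. In HS it was 3, in place of 5, with only the compared groups in the fit, and also when JB SCF 6 and HS SCF 5 were both left out. Leaving out single samples gave 3 to 5 in HS, and a median difference of the 9 genes in HS of 1.47 to 2.13. Values as deposited, where HS IMF 3 is dimmer, gave a median difference between breeds in IMF of 1.03, against 0.376 over all probe sets. They turned the depot calls over all probe sets from 784 higher and 1064 lower into 579 higher and 1318 lower, and in HS from 303 and 255 into 235 and 400.

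Differences that did not pass changed sign as follows, and the cause was not tested. With array weights, JB minus HS was −0.181 for PDGFRB in IMF, and 0.0582 for MYH11 and −0.0632 for PDGFRB in SCF, and the interaction was −0.564 for CNN1 and −0.118 for PDGFRB. Without both HS IMF 3 and HS SCF 4, the breed difference was −0.404 for PDGFRB in IMF, and 0.45 for MYH11 and −0.195 for PDGFRB in SCF. The interaction was then −0.633 for CNN1, −0.0675 for MYLK, −0.208 for PDGFRB and −0.0675 for the median of the 9 genes. When JB SCF 6 and HS SCF 5 were both left out, the breed difference of MYLK in SCF was −0.201, and the interaction was 0.361 for ACTA2 and 0.272 for TAGLN. The dimmer MYLK probe set gave −0.142 in SCF, and a pseudocount of 1 gave −0.00878 for the CALD1 interaction. Leaving out single samples, the breed difference in IMF ran from −0.404 to 0.355 for PDGFRB. In SCF it ran from −0.576 to 0.45 for MYH11, from −0.18 to 0.263 for MYLK and from −0.196 to 0.249 for PDGFRB. IMF minus SCF in HS ran from −1.39 to 0.923 for RGS5. The interaction ran from −0.529 to 0.277 for ACTA2, −0.218 to 0.176 for CALD1, −0.217 to 0.538 for CNN1, −0.467 to 0.292 for PDGFRB and −0.779 to 0.107 for TAGLN. With the sample number as a replicate block, 0 of the 10 probe sets passed between breeds, the medians were 0.69 in IMF and 0.16 in SCF, and no call changed.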

Other observations

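Relatives of the 9 genes, chosen by family name, had differences of both signs between the depots (limma with Benjamini-Hochberg adjustment, over both breeds). The non-muscle actins ACTB and ACTG1, which every cell makes, differed by 0.05 and −0.09 in their brightest probe sets and did not pass. The sarcomeric actins ACTA1 and ACTC1 rose in IMF by 6.39 (adjusted p = 0.00742) and 4.90 (adjusted p = 0.00346). The ACTC1 signal ran from 120.1 to 18562 in IMF and from 24.5 to 286 in SCF. The non-muscle myosin MYH10 differed by 0.16 and did not pass, and MYH9 was too dim to be tested. CNN2 and CNN3, the calponins of other cells, differed by −0.07 and 0.08 and did not pass. TAGLN2 differed by −0.67 (adjusted p = 0.248), while TAGLN3 rose by 1.89 (adjusted p = 0.032), its signal running from 24.3 to 303 in IMF and from 2.27 to 19.0 in SCF.

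SMTNL2, a smoothelin-like gene, rose by 4.91 ± 0.23 (SE; adjusted p = 1.52e-07), its signal running from 928 to 2146 in IMF and from 20.1 to 62.2 in SCF, so the depots lay far apart. MYLK2, the light chain kinase of skeletal muscle, rose by 2.18 (adjusted p = 0.000157), with 144 to 380 in IMF and 33.7 to 50.9 in SCF. Of the relatives of RGS5, RGS10 fell by 0.99 in IMF (adjusted p = 0.0211), while RGS1, RGS3, RGS16 and RGS19 did not pass. Of the kinase receptors related to PDGFRB, CSF1R of macrophages fell by 1.62 (adjusted p = 0.00482) and KIT differed by −0.81 (adjusted p = 0.148). Whether probe sets of these families bind each other's transcripts was not tested.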
